A study of Homo sapiens with 12 samples.

Results

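HCT116 cells, a human colorectal carcinoma line, were held in nocodazole after release from a synchronising block, and the arrays taken at 9 h and 10 h after release were compared with those taken at 7 h and 8 h in the same drug arm. The comparison used the 4 arrays labelled nocodazole among the 12 arrays of the series, chosen by treatment and time alone and by no measured value. In all 12 samples S-phase entry had been blocked with 2 mM thymidine for 19 h, the block was lifted for 9 h, and a second thymidine block of 16 h followed. At release the cells received either DMSO, the vehicle, or nocodazole, given in the labels and in the study's methods as 0.1 mg/ml. That is far above the concentrations usual for this drug, and whether the unit is as intended could not be checked here. Nocodazole arrays exist for every hour from 7 to 10 h and DMSO arrays for those hours and for 0, 2, 4 and 6 h, with 1 array at each treatment and time. The 4 DMSO arrays from 7 to 10 h served as the vehicle control over the same hours. There were thus no replicates of a condition, and every error given here is the spread of neighbouring times around the mean of their window, which holds 2 arrays.

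Nocodazole depolymerises microtubules. Without a spindle the kinetochores stay unattached, the spindle checkpoint keeps the anaphase-promoting complex from degrading cyclin B, and the cell stays in mitosis with condensed chromosomes. Most transcription is silenced on mitotic chromosomes, so that messengers with short half-lives run down during a long arrest while stable ones stay. The comparison of the windows therefore asks which transcripts were lost, kept or gained over these hours in the drug. How many cells were already arrested in mitosis at 7 and 8 h was not measured on the arrays. The 7 h nocodazole array had a correlation of 0.992 with the 7 h DMSO array and of 0.972 with the 9 h nocodazole array.

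The values are log2 probe set signals, each unit of which is a 2-fold difference in signal, and they were quantile normalized over the 12 arrays. A gene was tested if a probe set that names only that gene reached log2 7 on at least 2 arrays, and its kept probe set with the highest mean stood for it, which left 7740 genes. Epithelial markers stood well above that level on all 4 nocodazole arrays: EPCAM lay between 14.09 and 14.30, KRT18 between 14.59 and 14.64 and CDH1 between 10.67 and 10.78. In all, 6 of 9 epithelial markers were at or above log2 7 on all 4 arrays, and VIL1 and CDX2, markers of intestinal differentiation, were under log2 5 on all 4. Of 12 markers of fibroblasts, endothelium and leukocytes, 11 were under log2 5 on all 4 arrays. The exception was COL1A1, a fibroblast collagen, whose probe sets went opposite ways, from 7.85 to 8.95 in one and from 8.19 to 7.25 in another. Of the mitotic genes, CCNB1 lay between 13.75 and 13.91, CDC20 between 13.77 and 13.90 and PLK1 between 11.34 and 11.62 on these arrays.

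The 9 h and 10 h nocodazole arrays stood apart from the other 10 before normalization. Over the genes tested, their medians as deposited were 9.34 and 9.23, against 9.57 to 9.99 on the other arrays, and 6951 and 6851 genes were at or above log2 7, against 7208 to 7452. Signal from 27 probe sets for bacterial sequences that human RNA should not contain averaged 2.78 and 2.76 there, and 2.48 to 2.63 elsewhere. As these are the only arrays of the later window, a lower yield of cellular signal on the array and less messenger per cell cannot be told apart, nor can fewer cells of a kind and less RNA per cell. Quantile normalization removes this shift, and all changes below are relative to the other genes on the array.

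Between 7 and 8 h and 9 and 10 h of nocodazole, 585 genes were called higher (7.56% of those tested) and 457 lower (5.9%), at an adjusted p under 0.05 in limma with Benjamini-Hochberg adjustment. The change reached 1 on the log2 scale in 180 of the genes called higher and in 166 of those called lower, and it reached 2 in 40 and 38. In all 1042 the arrays of the windows did not overlap. Non-overlap by itself was common, since 4760 of all tested genes (61.5%) showed it. The median absolute difference over genes was 0.185 between the nocodazole windows, against 0.118 between 7 and 8 h and 0.109 between 9 and 10 h, and against 0.119 between the same windows of DMSO. Called genes that moved the same way at every hour numbered 108 of the 585 and 141 of the 457, but the test takes the difference within a window as its error and so favours genes that are level within it. A straight slope over the 4 hours called 12 genes, all lower, and leaving out the 10 h array left 333 calls.

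The balance of rises and falls depended on the scaling. On values as deposited the median gene was 0.42 lower at 9 and 10 h, and 4416 genes were called, of which 4.08% were higher. Of the 585 genes called higher after quantile normalization, 169 were also called higher on the deposited values and 59 had a deposited difference below 0. Of the 457 genes called lower, 452 were also called lower there. With each deposited array centred on its median instead, 77.7% of the 3055 calls were higher, and 383 of the 457 falls were still called. A rise here is thus a rise relative to the rest of the array.

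**Figure D1:**
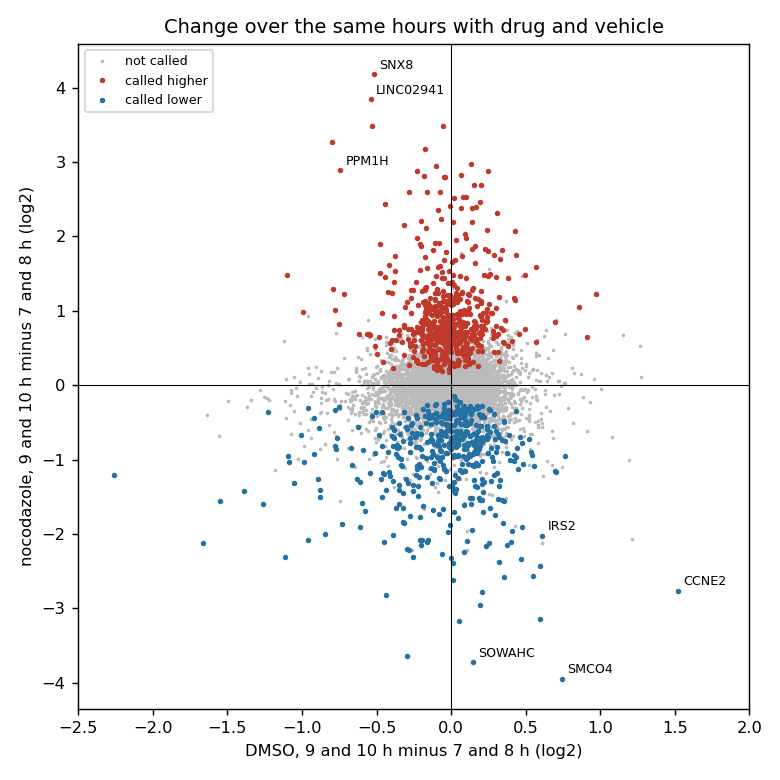
Each point is 1 of 7740 genes; the vertical axis is the log2 difference between the 9 and 10 h and the 7 and 8 h nocodazole arrays and the horizontal axis the same difference on the DMSO arrays, with genes called in the nocodazole comparison in red (higher, 585) and blue (lower, 457). SNX8 lies at the top, SMCO4 at the bottom, and CCNE2 fell with nocodazole while it was higher with DMSO.

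IRS2, PPM1H and CCNE2 were given as marker genes of this comparison. IRS2 encodes an adaptor that couples the insulin and IGF receptors to PI3-kinase. Its signal was 7.96, 7.72, 5.49 and 6.14 at successive hours from 7 to 10 h of nocodazole, and 7.85, 8.16, 8.15 and 9.08 at the same hours of DMSO. Both late nocodazole arrays were thus below both early ones, while the DMSO arrays did not fall. The difference was -2.02 (SE 0.26, 2 arrays a window, limma adjusted p = 0.00845), and it differed from that with DMSO by -2.63 (limma interaction, adjusted p = 0.0163). A dimmer IRS2 probe set, which did not pass the filter, was 5.92 early and 6.33 late, so the fall was seen in one probe set and not in the other.

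PPM1H, a metal-dependent serine/threonine phosphatase, went the other way. Its signal was 7.29, 7.18, 10.05 and 10.19 under nocodazole and 7.44, 8.02, 7.37 and 6.60 with DMSO. The late nocodazole arrays were the highest of these 8, and the difference was 2.89 (SE 0.14, limma adjusted p = 0.000397). The second PPM1H probe set that passed the filter was 7.78 early and 6.98 late, a change in the opposite direction, and the last one was at 2.72 and 2.78. The rise of PPM1H is therefore that of 1 of 3 probe sets, and over the mean of those kept it was 1.04 (limma adjusted p = 0.0103).

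CCNE2, cyclin E2, drives entry into S phase and is transcribed from E2F sites in G1. It measured 5.83, 6.31, 3.05 and 3.56 on the nocodazole arrays, against 8.45, 9.28, 10.26 and 10.51 on those of DMSO. The nocodazole signal fell further from an already low level in the hours in which it was higher with vehicle. The difference was -2.77 (SE 0.32, limma adjusted p = 0.00568), and it differed from DMSO by -4.29 (limma interaction, adjusted p = 0.00227). Its second probe set went from 4.05 to 3.02, in the same direction.

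The IRS2 and PPM1H promoters are shown because these markers moved in opposite directions and the arrays hold no sequence of their own. Each run is the 250 bases upstream of the start site, 5′ to 3′, from RefSeq on GRCh38.p14, with CG dinucleotides in capitals. IRS2 lies on the minus strand at chr13:109786584-109786833 and PPM1H on the minus strand at chr12:62935151-62935400.
IRS2: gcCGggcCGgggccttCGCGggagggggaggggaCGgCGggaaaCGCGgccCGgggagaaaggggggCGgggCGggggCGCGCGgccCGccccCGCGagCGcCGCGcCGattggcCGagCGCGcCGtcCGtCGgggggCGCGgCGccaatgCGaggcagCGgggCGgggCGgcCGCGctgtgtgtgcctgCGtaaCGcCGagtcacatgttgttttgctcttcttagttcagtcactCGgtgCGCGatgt
PPM1H: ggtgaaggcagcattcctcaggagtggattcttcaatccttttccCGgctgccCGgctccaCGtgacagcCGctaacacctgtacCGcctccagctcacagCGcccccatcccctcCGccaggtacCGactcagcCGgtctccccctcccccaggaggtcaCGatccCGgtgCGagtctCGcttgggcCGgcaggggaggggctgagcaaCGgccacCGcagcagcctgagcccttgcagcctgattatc
The IRS2 stretch holds 42 CG dinucleotides and is 76.4% G or C, the PPM1H stretch 16 and 66%. IRS2 contains CCAAT, which 36% of the promoters of tested genes contain on either strand, and TTCGCG, an E2F core, which 9.5% contain. PPM1H contains neither of them, and neither stretch contains the other 3 motifs searched for on both strands.
A promoter was found for 6507 of the 7740 tested genes and for 379 of the 457 called lower, whose median of 22 CG dinucleotides was that of all tested genes. Of the genes called higher only 79.1% had one, under the share of 80% needed for such a check, which is therefore void for them. Among genes called lower, 36.1% of promoters held CCAAT and 7.39% the E2F core. The CHR, the element bound by the repressor of mitotic genes, was searched as TTTGAA and was in 11.1% of them, against 8.36% of all. The TATA box, searched as TATAAA, was in 4.22% against 4.6% of all. The core of the cyclic AMP response element, searched as TGACGT, was in 10% against 11.3%. What these letters do was not tested.

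**Figure D2:**
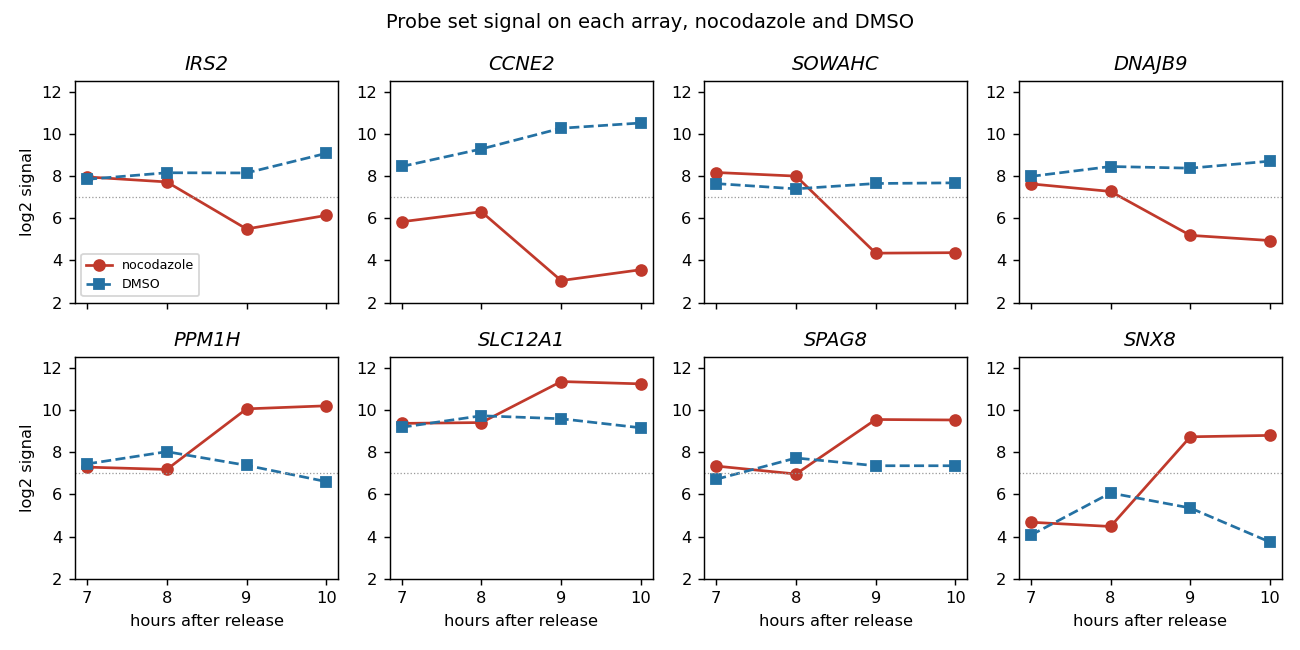
Signal of 8 genes (log2, vertical axis) at each hour from 7 to 10 h since release (horizontal axis) on the nocodazole arrays (red circles, solid line) and the DMSO arrays (blue squares, dashed line), 1 array a point; the dotted line marks the filter at log2 7. The nocodazole signal changed between 8 and 9 h in all 8 genes, downwards in IRS2, CCNE2, SOWAHC and DNAJB9 and upwards in PPM1H, SLC12A1, SPAG8 and SNX8.

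The largest falls were of transcripts that were moderate or low at the start. SMCO4, a small membrane protein of unsettled function, was at 6.85, 6.86, 3.25 and 2.57 under nocodazole and at 7.09, 6.69, 7.41 and 7.86 with DMSO, a difference of -3.94 (SE 0.31, limma adjusted p = 0.00169). SOWAHC, an ankyrin repeat protein, was at 8.17, 8.00, 4.35 and 4.37 (-3.72, SE 0.21, limma adjusted p = 0.000852) and between 7.39 and 7.68 with DMSO. Its second probe set also went down, from 7.31 to 6.18. RPS6KC1, which resembles the ribosomal S6 kinases, was at 7.27, 6.93, 3.36 and 3.56. METTL6, a transfer RNA methyltransferase, went from 7.22 and 7.05 to 4.59 and 3.36, and PHF13, a PHD-finger chromatin protein, from 9.09 and 9.12 to 7.07 and 4.84. BLM, the helicase lost in Bloom syndrome, was at 6.92, 6.80, 5.23 and 2.93. PHF13 and BLM were each lower still at 10 h than at 9 h, and BLM's difference from DMSO missed the threshold (limma interaction, adjusted p = 0.0519). The other 6 of the 12 largest falls were WDR72, RCAN3, a regulator of calcineurin, CCNE2, TP53INP1, a p53-induced stress protein, PACRGL and EGFL7, a secreted vascular factor, with differences between -2.96 and -2.57. Several of these falls also rested on 1 probe set. METTL6's 4 others lay between 1.53 and 2.39 in both windows, those of TP53INP1 between 2.13 and 2.58, and those of WDR72 between 2.42 and 2.91. RCAN3's others changed by 0.01 and -0.61 and PACRGL's by -0.15, -0.19 and -0.55. These other probe sets did not pass the filter, and most were dim from the start.

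Most of the largest rises rested on 1 probe set of the gene. SNX8, a sorting nexin of endosomes, was at 4.68, 4.48, 8.73 and 8.79 under nocodazole, a difference of 4.18 (SE 0.20, limma adjusted p = 0.000397). On the DMSO arrays the same probe set was at 4.07, 6.06, 5.35 and 3.74, so it was not flat without the drug. LINC02941, a long non-coding RNA, was at 6.10, 5.48, 9.52 and 9.74 under nocodazole and at 4.92, 6.75, 5.98 and 4.62 with DMSO. PTGER3, a prostaglandin E2 receptor, was at 8.86, 8.21, 11.94 and 12.09 under nocodazole and at 7.73, 9.90, 9.16 and 7.42 with DMSO. In all 3 the DMSO arrays peaked at 8 h. POLH, the translesion DNA polymerase eta, was at 8.36, 8.19, 11.65 and 11.86, a difference of 3.48 (SE 0.12, limma adjusted p = 0.000149).

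These rises were not shared by the genes' other probe sets. PTGER3 has 9 others, whose window means all lay between 1.56 and 3.39 with differences of at most 0.27. POLH has 5 others, of which one that passed the filter went from 6.39 to 6.57, 3 went down, from 5.09 to 3.40, from 5.28 to 3.97 and from 3.43 to 3.10, and the last was at 1.57 in both windows. LINC02941's other probe set was at 2.46 and 2.50, and SNX8 has none among those naming 1 gene. The remaining 8 of the 12 largest rises were AKR1E2, an aldo-keto reductase, PAPPA, a protease that cleaves IGF-binding proteins, GPR26, an orphan receptor, ABO, the blood group transferase, PPM1H, BIRC7, an inhibitor of apoptosis, MUC5AC, a gastric mucin, and ESR1, the estrogen receptor, with differences between 3.27 and 2.83. ABO, MUC5AC and ESR1 missed the threshold against DMSO (limma interaction, adjusted p = 0.0939, 0.057 and 0.055). AKR1E2, PAPPA, GPR26 and ABO reached log2 7 on fewer than 2 arrays outside the late nocodazole window, so the filter itself required them to be high there and their p is no support. Of all genes called higher this held for 45 (7.69%), and of those called lower 7 (1.53%) passed only through the early window. A gene named here is thus the annotation of 1 probe set, and whether that transcript rose was not tested.

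The disagreement was general. Of the 585 genes called higher, 165 had another probe set that passed the filter, and in 64.2% of them the other probe sets moved the same way in their median. Of the 457 called lower, the same held for 81, which were 60.9% of those with another. The median change of the other probe sets was 0.155 where the probe set standing for the gene had changed by 0.628, and -0.124 where it had changed by -0.564. Counting every probe set of a gene, all others were under log2 5 on all 4 arrays in 42.7% of the genes called higher that had another, 37.9% of those called lower and 29.7% of those not called.

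**Figure D3:**
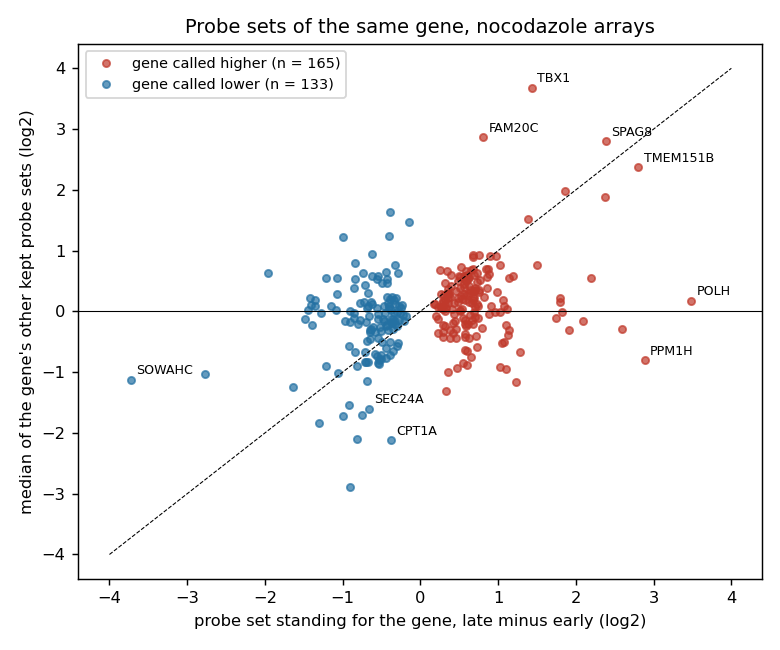
Each point is a called gene with at least 1 other kept probe set (higher in red, lower in blue); the horizontal axis is the change of the probe set that stands for the gene and the vertical axis the median change of its other kept probe sets, both in log2, and the dashed line marks equal change. The medians are 0.628 on the horizontal and 0.155 on the vertical axis for genes called higher, with POLH near 0 and PPM1H below 0 on the vertical axis, while SPAG8, TMEM151B and CPT1A show the change in both.

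A second probe set was called in the same direction, in a fit over all 13580 kept probe sets, for 22 of the 165 genes called higher (13.3%) and for 16 of those called lower (12%). Another probe set was called in the opposite direction for 10 of the genes called higher and for 13 of those called lower. Over all kept probe sets the calls were 6.91% higher and 5.15% lower. These genes were chosen after their values were seen. SPAG8, a sperm-associated antigen, was at 7.34, 6.96, 9.54 and 9.52, a rise of 2.38 (SE 0.17, limma adjusted p = 0.00152), and its second probe set rose by 2.80. FAM20C, the Golgi kinase of secreted proteins, rose by 0.81 in one probe set and 2.87 in the other. TBX1, a T-box factor, rose by 1.43 and 3.68, TMEM151B by 2.80 and 2.38, and CHRNB2, an acetylcholine receptor subunit, by 1.38 and 1.52. Among the falls, CPT1A, the gatekeeper of fatty acid entry into mitochondria, fell in all 3 kept probe sets, with -0.38 in the brightest and -3.11 in the one that changed most. SEC24A, a cargo receptor of COPII vesicles, changed by -0.67 and -1.60, TNFAIP8, a lipid transfer protein that opposes apoptosis, by -1.64 and -1.25, and DUSP3, a dual-specificity phosphatase, by -1.31 and -1.66. PNPLA8, a phospholipase, changed by -1.21 and -2.04, and CEP57, which stabilises microtubules at centrosomes, by -0.92 and -2.13. A further kept probe set of PNPLA8 did not fall. For SPAG8, TBX1, CHRNB2 and TNFAIP8 the change with nocodazole also differed from that with DMSO (limma interaction, adjusted p from 0.0177 to 0.0488).

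Set against DMSO over the same hours, the change differed in 407 genes, higher with nocodazole in 209 (2.7% of those tested) and lower in 198 (2.56%). Of these, 326 were also called within the nocodazole arrays. Both comparisons contain the same nocodazole difference, so their directions are not independent. SOWAHC had the smallest adjusted p of the falls (-3.87, SE 0.28, limma interaction, adjusted p = 0.000358), followed by SMCO4, CCNE2, WDR72, DNAJB9 and TRIM32. DNAJB9, an endoplasmic reticulum co-chaperone, was at 7.63, 7.27, 5.19 and 4.95 with nocodazole and between 7.98 and 8.71 with DMSO. TRIM32, a ubiquitin ligase, was at 8.47, 8.39, 7.29 and 7.22 under nocodazole and at 8.45, 8.49, 8.98 and 9.37 with DMSO. In both genes the arms were close at 7 h and parted by 9 h.

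Among the genes higher with nocodazole than with DMSO, the smallest adjusted p were those of CMBL, PPM1H, TRIM38, SPN, SLC12A1 and LPP. CMBL, a hydrolase, was at 11.16, 11.20, 12.14 and 12.15 under nocodazole and at 11.09, 11.18, 10.63 and 10.71 with DMSO, a difference of changes of 1.43 (SE 0.11, limma interaction, adjusted p = 0.000358). Its other bright probe set was 10.86 early and 10.85 late. SLC12A1, the kidney sodium-potassium-chloride transporter, was at 9.36, 9.40, 11.34 and 11.23, while its other probe set was at 3.15 in both windows. LPP, a focal adhesion protein, rose by 1.82 in the probe set that stands for it, against 0.12 and -0.16 in the others that passed the filter. In TRIM38, a ubiquitin ligase, the others were below the filter and moved by -1.75, 0.62 and -0.21. Without both arrays of 8 h the interaction called 9 genes and without both of 10 h 16, so these calls rested on those hours.

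Of 69 tested genes of G2 and mitosis, 2 were called higher (2.9%) and 7 lower (10.1%), with a median change of -0.13, against -0.01 for all genes. Over all genes 13.5% were called in either direction, 7.56% higher and 5.9% lower. Counts within the nocodazole arrays in the lists that follow are to be read against these shares and against level. Between log2 7 and 9 with DMSO 12.3% of genes were called higher and 8.27% lower. Between 9 and 11 these were 4.7% and 4.93%, and at 11 or more 3.14% and 2.99%. The median early level was 11.88 in the list of G2 and mitosis, 12.08 among splicing factors and 8.08 among ZNF genes. MAD2L1, the checkpoint protein that inhibits CDC20, was at 13.49, 13.49, 13.83 and 13.72, and CCNA2, cyclin A2, at 12.48, 12.51, 12.72 and 12.72. MAD2L1's rise of 0.29 turned to -0.13 when its probe sets were averaged. CENPE, the kinetochore motor, fell from 9.28 and 9.00 to 8.39 and 8.06 (-0.92, limma adjusted p = 0.0233), and INCENP, the scaffold of the chromosomal passenger complex, from 7.91 and 7.94 to 7.13 and 6.99. With DMSO the changes were -0.92 for CENPE and -0.77 for INCENP, so neither was shown to differ from vehicle (limma interaction, adjusted p = 0.997 and 0.903). The other falls were CCNF, KIF14, BUB3, ASPM and NDC80, between -0.44 and -0.29. With DMSO, where the cells divided, the median of this list was -0.51. The interaction called 10 of its 69 members higher with nocodazole and none lower, against 2.7% higher and 2.56% lower of all tested genes. KIF23, TROAP, PSRC1 and KIF18B, kinesins and spindle proteins among the 10, changed by -0.16 to 0.08 with nocodazole and by -1.28 to -0.96 with DMSO. Tubulins, which destabilise their own messengers when free subunits accumulate, had a median of -0.15 over 13 genes with nocodazole and with DMSO alike, and none was called.

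Genes of the G1/S transition showed 3 rises and 3 falls among 50 tested, with a median of -0.02. Beside CCNE2, POLA1, the catalytic subunit of DNA polymerase alpha, fell from 6.32 and 6.44 to 4.87 and 4.38 (-1.75, limma adjusted p = 0.0131), and E2F8, an atypical E2F repressor, from 7.45 and 7.20 to 6.21 and 6.12. MCM10, a replication initiator, was at 9.71, 9.91, 10.52 and 10.60 and was higher by 0.75, E2F2 by 0.65 and ORC6, an origin recognition subunit, by 0.32. On the deposited values these rises were 0.27, 0.03 and 0.03. None was shown to differ from DMSO (limma interaction, adjusted p = 0.544, 0.541 and 0.445), where E2F2 rose by 0.91. With DMSO the median of the list was 0.26. By the interaction 7 members differed from DMSO, all lower with nocodazole, where 2.56% of all tested genes were lower. These 7 were CCNE2, POLA1, E2F8, CASP8AP2, MCM5, CDC6 and MCM7. Of the genes the study's own signature assigns to a phase, 1 of 60 M genes was called higher and 3 lower, 2 and 4 of 64 S genes, 2 and 1 of 29 G1 genes, and 2 and 2 of 43 G2 genes. That signature was not built on these arrays.

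Immediate-early and growth factor response genes, whose messengers are short-lived, had a median of -0.18 over 36 tested genes, with 1 called higher and 3 lower. EGR1, a zinc finger factor induced within minutes of a stimulus, was at 8.83, 9.09, 9.44 and 9.64, higher by 0.58, but by only 0.03 on the deposited values. KLF2 fell by 0.56 and DUSP5, a phosphatase of ERK, by 0.35. ZFP36L2, which promotes decay of AU-rich messengers, was lower by 0.39 in its brightest probe set, while the mean of its probe sets was higher by 0.63. Against DMSO, JUNB, DUSP5 and IER3 were lower with nocodazole, with differences of changes of -1.33, -0.79 and -0.50. That interaction called 2.56% of all tested genes lower. As a group these genes were thus shifted by less than 0.2, and most members did not pass the test.

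In the insulin and PI3-kinase list, 2 of 23 tested genes were called higher and 3 lower. GSK3A, a kinase that phosphorylates glycogen synthase, was at 10.50, 10.45, 11.02 and 11.10 (0.58, limma adjusted p = 0.011), and FOXO4, a transcription factor held out of the nucleus by AKT, rose by 0.82. GRB10, an adaptor that dampens insulin signalling, fell from 8.15 and 8.36 to 7.42 and 7.48. INSR, the insulin receptor, was lower by 1.09 in the probe set that stands for it and higher by 1.72 and 0.63 in 2 others below the filter. Among 32 phosphatases 3 were called higher, PPM1H, PPP2R5D and PPM1B, and none lower, with a median of -0.02. PPP2R5D, a regulatory subunit of PP2A, rose by 0.54 and PPM1B by 0.45, of which 0.02 and -0.10 remained on the deposited values.

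Among genes that control death and arrest the counts were small. Of 23 tested p53 targets, TP53INP1 fell by 2.62, from 5.45 and 5.40 to 3.03 and 2.57, and AEN, an exonuclease of apoptotic cells, was higher by 0.48 (-0.07 on the deposited values). In the BCL2 family 1 of 14 was called, BID, which links death receptors to mitochondria, lower by 0.65. Its other kept probe sets were lower by 1.35 and higher by 0.44. RBL2, the retinoblastoma-like protein of quiescent cells, was at 8.72, 8.59, 9.57 and 9.43 and was the only call among 11 D cyclins, CDK inhibitors and pocket proteins.

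In the list of ATF4 targets and the unfolded protein response, 3 of 26 were called lower and none higher: DNAJB9 by 2.38, CEBPG, a partner of ATF4, by 0.90 and TRIB3, a pseudokinase, by 0.65. CEBPG's other kept probe set was at 8.44 in both windows. Heat shock genes had no call among 15, with a median of 0.07, and genes of hypoxia and glycolysis had 1 call in each direction among 23. NFKB1, the precursor of the p50 subunit of NF-kappaB, fell from 7.70 and 8.34 to 6.79 and 6.56, and SKIL, a repressor of SMAD signalling, from 6.83 and 6.82 to 5.05 and 5.52. Both are among 9 and 11 tested genes of their pathways, in which 1 other gene, NFKBIB, was called, higher by 0.63.

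Sterol synthesis genes went both ways. MVK, mevalonate kinase, was at 6.93, 6.39, 8.00 and 7.76 (1.22, limma adjusted p = 0.024), and HSD17B7, INSIG1 and HMGCS1, an early enzyme of the pathway, were higher by 0.67, 0.59 and 0.54. On the deposited values HSD17B7 was at 0.11 and HMGCS1 at 0.02, and HMGCS1's other kept probe set was lower by 0.11. SREBF1, whose product activates lipid synthesis genes, fell by 0.97 and EBP, a sterol isomerase, by 0.32. EBP's other kept probe set rose by 0.77, and the mean of both was higher by 0.23. INSIG1, the sterol sensor that retains SREBP in the endoplasmic reticulum, was at 8.38, 8.46, 9.03 and 9.00. Its second probe set was called as well, higher by 0.66, although INSIG1 was at -0.02 on the deposited values. The list's median was 0.06 over 23 genes with 4 called higher and 2 lower. By the interaction with DMSO none was called higher and 1 lower.

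Ribosomal, respiratory and proteasome genes are abundant, and among all genes of log2 11 or more with DMSO 3.14% were called higher and 2.99% lower. Among 51 ribosomal protein genes the changes had a median of -0.03 and 1 call in each direction, RPL27A, higher by 1.58, and RPL37A, lower by 0.15. The RPL27A probe set was dim for this list, at 7.61, 8.14, 9.60 and 9.31, where the median early level was 15.45. It was at 9.38 with DMSO at 10 h, and its change was not shown to differ from vehicle (limma interaction, adjusted p = 0.22). RPL37A's other kept probe set was higher by 1.47, and its brightest one was nearly unchanged on the deposited values (-0.04). Of 67 genes of oxidative phosphorylation 1 was called higher and 5 lower, the largest of which was NDUFA8, a subunit of complex I, by 0.54. The proteasome, with 30 genes, ranged from -0.29 to 0.06, and PSMD8 was its one call. On the deposited values 26 of the 67 genes of oxidative phosphorylation and 10 of the 30 of the proteasome were called lower, where 4236 of all 7740 genes were. Of ribosomal protein genes and translation factors none was called lower on those values, and 2 of each were called higher. After quantile normalization translation factors had 2 calls of 30, EIF4E, the cap-binding protein, higher by 0.32 and EIF3A by 0.23. EIF3A's other kept probe sets changed by 0.05 and -0.75, and their mean with the first was lower, at -0.16.

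Splicing factors had 4 of 34 called higher and none lower: LUC7L3, U2AF2, SRSF11 and HNRNPH1, by 0.33 to 0.19, with a list median of 0.08. Of the RNA polymerase II machinery 3 of 34 rose, TBP, the TATA-binding protein, by 0.61, SUPT5H, an elongation factor, by 0.45 and GTF2H3, a TFIIH subunit, by 0.37, and POLR2J fell by 0.36. On the deposited values TBP and SUPT5H were at -0.01 and -0.09. ZNF genes, most of which encode KRAB zinc finger repressors, had 21 of 127 called higher and 9 lower, with a median of 0.07. ZNF808 was at 5.01, 4.93, 7.84 and 7.73 and ZNF252P, a pseudogene, at 5.80, 5.77, 7.49 and 7.81. Both passed the filter only through the late nocodazole arrays, as did FOXO4 and, also among the 21, ZNF683 and ZNF839. The filter itself required these genes to be high there, so the count of 21 is raised by it. ZNF581 fell from 9.50 and 9.06 to 7.86 and 7.50, and ZNF559 from 7.52 and 7.43 to 5.67 and 5.73. Lists without a call among their tested genes, beside tubulins and heat shock, included WNT targets (9 tested of 18) and named non-coding RNAs (7 tested of 25). MALAT1, of the last list, was at 13.62, 12.14, 13.60 and 13.37, so its windows overlapped (0.60, limma adjusted p = 0.348). All of its kept probe sets were nevertheless higher late, by 0.39 to 2.23. Those below the filter were dim and changed by -0.04 and -0.11.

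**Figure D4:**
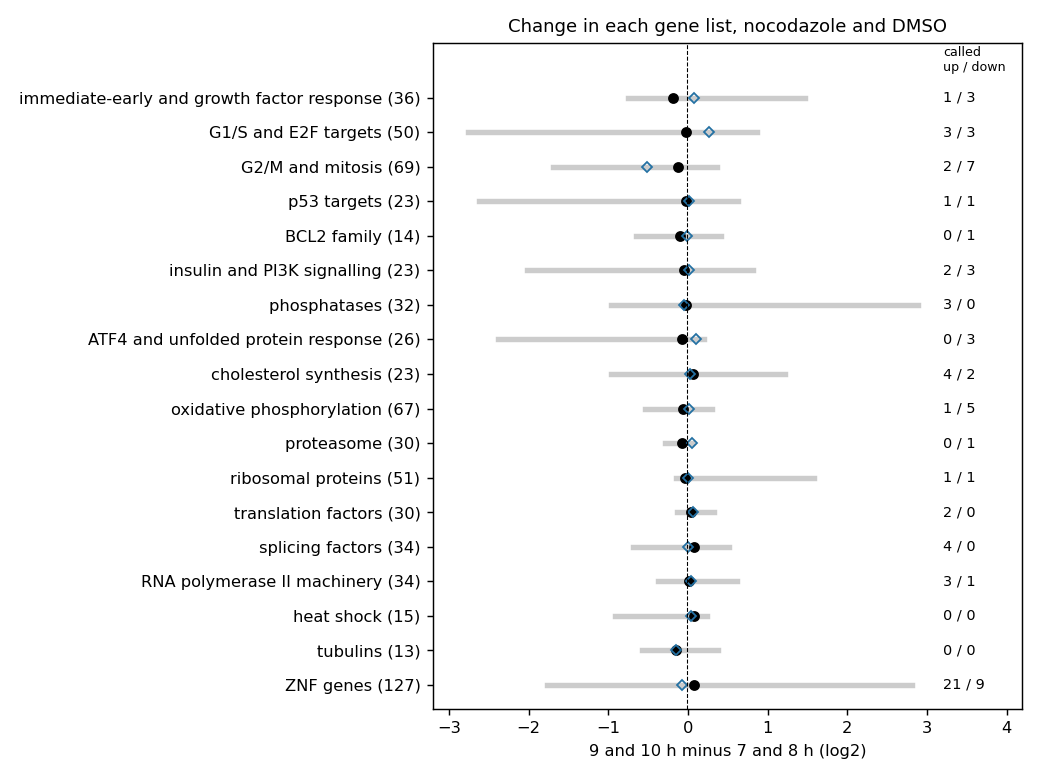
For 18 gene lists, with the number of tested genes in brackets, the grey bar spans the lowest to the highest member change with nocodazole (9 and 10 h minus 7 and 8 h, log2), the black circle is the median with nocodazole and the open blue diamond the median with DMSO; the dashed line is the median of all genes, and the figures at the right give members called higher and lower. The medians with nocodazole lie between -0.18 and 0.08, and that of the G2 and mitosis list with DMSO lies at -0.51.

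By kind of transcript, non-coding genes were called higher far more often than lower. Of 96 long non-coding RNA genes 28 (29.2%) were called higher and 2 lower, and of 55 pseudogenes 22 (40%) were called higher and none lower. These shares include genes that passed the filter only through the late nocodazole arrays, such as ABO and ZNF252P, both annotated as pseudogenes. Over all genes 90 passed only through that window and 21 only through the early one, which favours calls of higher. Their number in each biotype was not counted. Of 7585 protein-coding genes 533 (7.03%) were called higher and 455 (6%) lower. Of 808 probe sets with no gene symbol 146 (18.1%) were called higher and 25 (3.09%) lower, with a median change of 0.05, against 0.21 for the probe sets of long non-coding genes. On the deposited values 14.6% of the long non-coding genes were called higher and 35.4% lower, against 2.07% and 55.2% of the protein-coding genes.

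The design of the probe set moved with these shares. Probe sets whose name ends in _x_at, in which some probes also match other sequences, were called higher in 17.1% of 1544 and lower in 2.27%. Those ending in _at were called higher in 6.64% and lower in 5.13%, and those ending in _s_at, shared by transcripts, in 4.29% and 5.89%. Among probe sets with no symbol, 43.6% of the 156 of the _x_at kind were called higher and 12% of the other 652. For long non-coding genes the share was similar in both kinds, 20% of 20 and 23.5% of 98. Protein-coding probe sets outside the _x_at kind were called higher in 4.91% and lower in 5.73%. Left out altogether, with each gene taken from its remaining probe sets, the _x_at kind took the calls from 1042 to 907, of which 52% were higher. Of the 12 largest rises SNX8, PTGER3, POLH, ABO and ESR1 were of this kind. What part stray hybridization had in the rises was not tested.

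Level moved with the shares as well. Of 408 genes whose mean DMSO level was between log2 5 and 7, 21.6% were called higher and 13% lower. The shares fell to 12.3% and 8.27% of 2417 genes between 7 and 9, to 4.7% and 4.93% of 2939 between 9 and 11, and to 3.14% and 2.99% of 1975 at 11 or more. The share called was thus larger among dim genes, in both directions. Genes under log2 7 with DMSO had passed the filter through some of the 12 arrays only, which favours genes that differ between arrays. Genes spanning under 10 kb of genome were called higher in 9.95% and lower in 6.95%, and those of 100 kb or more in 5.66% and 6.59%.

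Few genes met the limits set for outright loss. Of 7121 genes at or above log2 7 on both early nocodazole arrays, 6817 were so on both late ones, and 3 were under log2 5 on both: METTL6, PACRGL and SOWAHC. The small number follows in part from the limits. The median early level of tested genes was 9.66, so a typical gene had far to fall before it counted. SMCO4, WDR72 and CCNE2, among the largest falls, began under log2 7 and could not count. Each loss is that of the probe set standing for the gene. SOWAHC's other kept probe set was still at 6.18 late, a PACRGL probe set below the filter went only from 5.69 to 5.15, and METTL6's others were dim in both windows. Of 7120 genes at or above log2 7 on both late arrays, 3 had been under log2 5 on both early ones: AKR1E2, SNX8 and DIAPH3-AS1, an antisense transcript whose signal cannot be assigned to a strand here. AKR1E2 and DIAPH3-AS1 passed the filter only through the late nocodazole arrays, so the filter itself required them to be high there. SNX8 had reached log2 7 on DMSO arrays before 7 h, so its signal was not first seen in the late window. On the deposited values 6673 of 7286 genes stayed at or above log2 7, and 6 were lost and 2 gained by the same limits. PACRGL was at 7.05, 7.44, 4.60 and 4.72 and AKR1E2 at 4.43, 4.59, 7.44 and 8.13.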

How the data were processed

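RNA from HCT116 cells was hybridised to Affymetrix U133 Plus 2.0 arrays, 1 array for each of 12 combinations of treatment and time. The deposited values are log2 signals of 54675 probe sets, for which the submitters' processing notes name GCRMA, which corrects background by probe GC content and normalizes between arrays. All 12 value columns were matched to a sample. The deposited log2 values were quantile normalized over all probe sets and arrays. Probe sets were named through the platform annotation, which gives 1 symbol to 41097, several to 1801 and none to 11777. A probe set with 1 symbol was kept if 2 or more arrays reached log2 7 (12085 did), and each gene was represented by its kept probe set with the highest mean.

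The 9 and 10 h nocodazole arrays were compared with those of 7 and 8 h in limma 3.58.1 (R 4.3.3), with an intensity trend in eBayes and Benjamini-Hochberg adjustment over 7740 genes. An interaction fit over 8 arrays set this change against that with DMSO. With 1 array a time, p-values measure the spread of neighbouring times, which mixes time and technical error, and the number of arrays limits the precision. Nothing in the sources used here says whether cultures were separate. On simulated data of 7740 genes for the window comparison, 69% of genes changed by 1 and 96% of those changed by 2 were recovered. There were 7 false calls among the genes left unchanged. For the interaction the shares recovered were 60% and 89%. The simulated errors were independent between arrays. They held no shift shared by the late nocodazole arrays, so the false calls do not cover such a shift.

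Named genes were the given markers, the 12 largest changes each way among called genes, up to 4 called members of each list in each direction, and the 6 smallest interaction p each way. Genes with a second called probe set and members called only in the interaction were added after their values were seen. The markers and lists were chosen with earlier results of these data known. Alternatives concerned scaling, filter, probe set choice, variance model, time model and left-out arrays.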

Additional observations from a re-analysis of the deposited data

Results flagged for a closer look

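The change from 7 and 8 h to 9 and 10 h differed between nocodazole and DMSO, by the test of the difference itself, in 407 genes, of which 209 were higher and 198 lower with nocodazole. The comparison has 2 arrays a window in each arm. Among the named genes the difference of changes, in log2, was -2.63 for IRS2, 3.63 for PPM1H, -4.29 for CCNE2, -3.87 for SOWAHC, -4.69 for SMCO4, -3.15 for WDR72, -2.70 for DNAJB9 and -1.88 for TRIM32. It was 1.43 for CMBL, 1.90 for TRIM38, 1.77 for SPN, 1.99 for SLC12A1 and 1.94 for LPP. Of these, PPM1H, CMBL, TRIM38, SPN, SLC12A1 and LPP have another probe set that did not rise. Among the falls, the other probe set of IRS2 changed by 0.42, those of WDR72 by -0.03, 0.12 and -0.08, that of TRIM32 by -0.13 and those of DNAJB9 by -0.06 and -1.77.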

How the results depend on the processing

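Calls within the nocodazole arrays numbered 1042 (585 higher, 457 lower). They numbered 4416 (180, 4236) on values as deposited, 3055 (2373 higher) on deposited values centred on the array median, 6463 (4102, 2361) with no filter, and 12 (0, 12) with a slope over time, and 878 were higher with a filter of log2 5. Leaving out 1 array gave 333 to 955 calls, 154 to 521 higher and 179 to 434 lower, the fewest without the 10 h array. The slope left 1843 genes at an unadjusted p under 0.05, as against 2547 with windows. Calls against DMSO numbered 407 (209, 198), and 1899 (79, 1820) as deposited, 842 (441, 401) with a filter of log2 5, 1232 (798, 434) with no filter and 155 (88, 67) with the spread from all 12 arrays. When probe sets were averaged by gene 313 were lower, and leaving out both arrays of 1 time gave 9 to 331 calls, 4 to 152 higher and 5 to 179 lower. Paired by hour, with time as a block, the comparison with DMSO gave 299 calls. Leaving out _x_at probe sets, an alternative chosen after seeing the data, gave 907 and 383. The replicate numbers were assigned in order of accession and pair no samples.

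Some named genes changed direction. As deposited, AEN was at -0.072, INSIG1 at -0.018, PPM1B at -0.10, SUPT5H at -0.087 and TBP at -0.0057. On centred values ASPM was at 0.094, BUB3 at 0.22, DUSP5 at 0.069, NDC80 at 0.016, PSMD8 at 0.19 and RPL37A at 0.52. With probe sets averaged by gene EBP was at 0.23, EIF3A at -0.16 (-0.14 against DMSO), MAD2L1 at -0.13, RPL37A at 0.66 and ZFP36L2 at 0.63. Without _x_at probe sets CMBL was at -0.0047 and COL1A1 at -0.94, and INSR was at 0.63 with a filter of log2 5 and with none. These reversals follow from another scale or another probe set. List medians, relative to all genes, moved by at most 0.446, which exceeds the medians themselves. Of 66 comparisons with deposited or centred values, 16 moved by at least the standard deviation of the members' changes. As deposited, ribosomal proteins, translation factors, heat shock genes and splicing factors lay 0.42, 0.41, 0.49 and 0.36 above all genes in their medians. Some lists lay below, such as immediate-early genes by 0.11. Which lists seem kept thus depends on the scale. Absent controls averaged 2.78 and 2.76 on the late nocodazole arrays. Whether this limited the falls of dim genes was not tested.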
